A study of Mus musculus with 12 samples.

Results

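The unfolded protein and heat shock response was followed here through 38 genes in lymphatic endothelial cells (LECs) sorted from the lungs of mice exposed to cigarette smoke (CS) or room air (RA). The genes were taken by symbol from the 52636 gene identifiers in the count files, as 25 genes of the endoplasmic reticulum (ER) stress response and 13 genes of the heat shock response. All 38 passed the filter on low counts, so none was dropped. No gene of either group passed an adjusted p of 0.05 after acute CS, after chronic CS or between the RA controls by the quasi-likelihood F-test of edgeR. With DESeq2 as the alternative, 1 of the 38 passed in each of these comparisons (Chac1, Herpud1 and Hspb1 in turn), where 9.15%, 2.44% and 1.18% of all genes did. Several genes, among them Hspa5, Manf, Hsph1 and Hspa1b, differed widely between libraries of the same group.

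The ER stress response adjusts the folding capacity of the ER to its load of secreted and membrane proteins. Its sensors IRE1 (Ern1), PERK (Eif2ak3) and ATF6 (Atf6) lie in the ER membrane. IRE1 splices the mRNA of the transcription factor XBP1, PERK slows translation and raises ATF4, and ATF6 is cleaved into a transcription factor, and together they induce ER chaperones such as BiP (Hspa5). The heat shock response is its counterpart in the cytosol, where the transcription factor HSF1 induces chaperones of the HSP70, HSP90, HSP40 and small heat shock protein families. Endothelial cells run these programs at a basal level, and the inducible HSP70 genes also respond to handling of cells.

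RNA from 12 libraries was counted, in 2 acute RA, 2 acute CS, 3 chronic RA and 5 chronic CS libraries, each called by its sex (F or M) and number. All came from Prox1-EGFP reporter mice, in which regulatory sequence of the lymphatic transcription factor gene Prox1 drives GFP, and cells were sorted as GFP and CD31 positive and negative for EpCAM and hematopoietic lineage markers. Smoke was given for 8 weeks in the acute arm and for at least 24 weeks in the chronic arm, with age-matched controls kept in RA. This follows the study's methods, whereas the labels give 8 weeks as the age of the acute mice and call the chronic mice aged. By the study's account exposure began some weeks after birth, so acute mice were older at sampling than their labels say. Acute libraries were pooled from 2 to 5 mice of the same condition and chronic libraries were not pooled, so pooling and length of exposure cannot be told apart. Whether libraries came from separate litters or cages is not given in the sources used here, and p-values measure the spread between these libraries.

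Total counts ran from 18821438 to 56998590 per library, and were lowest in chronic CS F, M1 and M2, at 22885446 or less. Values are in CPM (counts scaled to a common library size with TMM factors). The sort marker Prox1 was at 1814 CPM or more in all libraries except the acute CS libraries, which had 1041 and 1262 CPM. The leukocyte gene Ptprc was between 11.1 and 54.3 CPM outside acute CS and at 284 and 154 CPM in acute CS, and the epithelial gene Epcam was at 0 in chronic CS F and at most 16.1 CPM elsewhere. In such bulk samples, fewer cells of a type and less RNA per cell cannot be told apart.

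Promoter sequences from RefSeq (GRCm38.p6, 250 bases before to 50 bases after the transcription start) were found for 31 of the 38 genes. A few are shown, for genes on which the results below turn, because they carry short elements through which these responses are known to act. The ER stress element (ERSE), spelled CCAAT followed by 9 bases of any kind and CCACG, was searched on both strands, and so were its shorter form ERSE-II (ATTGG, 1 base, CCACG), the heat shock element (GAA and TTC units in alternation, 3 units with 2 bases between them) and the amino acid response element (TTGC, 1 base of any kind, TCA). The element is in capitals in each sequence, and up to 250 bases before the start are printed.

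Hspa5, chr2:34771840-34772089, + strand: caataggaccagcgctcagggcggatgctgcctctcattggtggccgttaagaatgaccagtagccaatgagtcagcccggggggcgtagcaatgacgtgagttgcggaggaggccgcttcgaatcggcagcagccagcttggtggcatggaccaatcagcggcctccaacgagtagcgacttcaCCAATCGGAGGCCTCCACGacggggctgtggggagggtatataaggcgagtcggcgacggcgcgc
Creld2, chr15:88819396-88819645, + strand: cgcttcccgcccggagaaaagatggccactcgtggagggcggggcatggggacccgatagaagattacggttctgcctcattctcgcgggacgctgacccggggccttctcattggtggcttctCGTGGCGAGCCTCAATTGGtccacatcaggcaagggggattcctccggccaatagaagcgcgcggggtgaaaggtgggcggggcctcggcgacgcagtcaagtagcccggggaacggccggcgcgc
Herpud1, chr8:94386179-94386428, + strand: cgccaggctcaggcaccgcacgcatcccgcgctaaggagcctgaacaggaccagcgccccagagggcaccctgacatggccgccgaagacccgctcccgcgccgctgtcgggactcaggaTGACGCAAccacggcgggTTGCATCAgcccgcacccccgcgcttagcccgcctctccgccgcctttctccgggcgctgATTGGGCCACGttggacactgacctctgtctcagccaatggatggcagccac
Chac1, chr2:119350992-119351241, + strand: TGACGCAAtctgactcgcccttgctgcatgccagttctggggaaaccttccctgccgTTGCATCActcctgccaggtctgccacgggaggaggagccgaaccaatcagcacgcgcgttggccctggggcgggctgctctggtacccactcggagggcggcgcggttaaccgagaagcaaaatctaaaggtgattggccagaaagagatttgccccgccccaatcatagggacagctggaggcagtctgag
Hsph1, chr5:149636279-149636308, - strand: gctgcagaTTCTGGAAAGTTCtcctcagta

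Of 22 ER stress genes with a promoter, 7 held an ERSE (Hspa5, Hsp90b1, Calr, Canx, Pdia6, Dnajc3 and Creld2), whereas 0.119% of 32851 mouse promoter windows of the same length did. The element of Hspa5 began 65 bases before the start and that of Creld2, on the other strand, 126 bases before it. Herpud1 held an ERSE-II, like Dnajb11, and 2 amino acid response elements, of which Dnajb9 held 1. ERSE-II was in 0.0365% of all windows and the amino acid response element in 3.69%. Chac1 held 2 amino acid response elements. None of the 22 held a heat shock element of this spelling, and none of the 9 heat shock genes with a promoter held an ERSE. Heat shock elements were found for Hspd1, Hspe1 and Hsph1, against 0.603% of all windows, and the windows of Hspd1 and Hspe1, which face each other on chromosome 1, overlap and share theirs. The element of Hsph1 lay 15 bases after the nearer of its starts, and 30 bases around it are printed. A match describes letters in a window, and says nothing of binding in these cells.

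Levels between genes were compared per length, in FPKM (CPM divided by the exon length in kilobases), over the 5 RA libraries. Cytosolic chaperones and ER folding genes led the order. The HSP90 gene Hsp90ab1 was highest at 451 ± 93.5 FPKM (SD, n = 5), followed by the small heat shock protein gene Hspb1 at 377 ± 254 FPKM (SD, n = 5), the constitutive HSP70 gene Hspa8 at 344 ± 97.9 FPKM (SD, n = 5) and the ER disulfide isomerase gene Pdia3 at 341 ± 65.9 FPKM (SD, n = 5). The ranges of neighbors in the order overlapped except below Dnajc3 (37.3 ± 2.55 FPKM, SD, n = 5), Asns and Ern1.

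**Figure D1:**
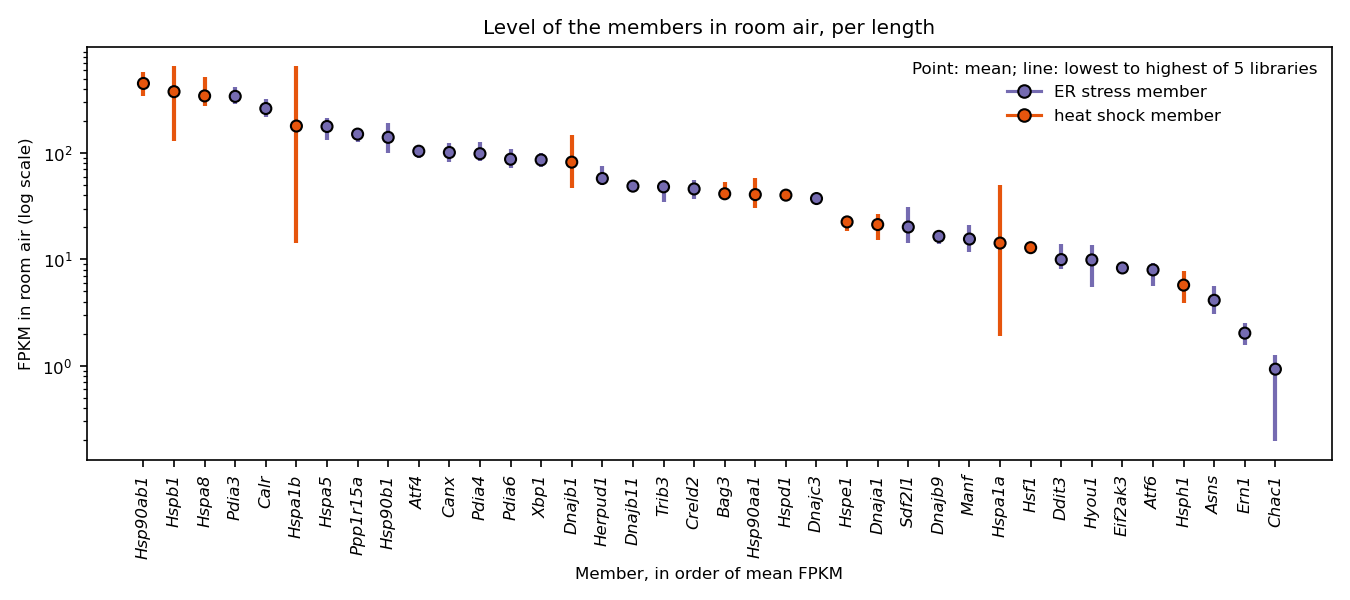
Level of each of the 38 genes in FPKM on a log axis, over the 5 RA libraries, in order of the mean, with points at the mean and lines from the lowest to the highest library. Hsp90ab1 was highest at 451 FPKM and Chac1 lowest at 0.927 FPKM, and Hspa1a and Hspa1b had the widest ranges.

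The 3 sensor genes were among the lowest. Hspa5 was at 178 ± 29.4 FPKM (SD, n = 5), while the sensor genes Eif2ak3, Atf6 and Ern1 were at 8.30, 7.96 and 2.02 FPKM on average. Among transcription factor genes, Atf4 was at 104 ± 11.6 FPKM, Xbp1 at 86.1 ± 10.3 FPKM, Hsf1 at 12.9 ± 0.787 FPKM and the proapoptotic factor Ddit3 (CHOP) at 9.94 ± 2.32 FPKM (SD, n = 5 each). Ppp1r15a, a phosphatase subunit that ends the block of translation, was at 151 FPKM. The glutathione-degrading enzyme gene Chac1 was lowest, at 0.927 ± 0.424 FPKM (SD, n = 5). By CPM, without division by length, Hspa8 came first and Hspb1 ranked 10, and Chac1 was last by both measures. Of the 50-base transcript windows of Hspb1, Hsp90aa1, Hspd1 and Hspa8, 50.1%, 47.5%, 42.1% and 39.4% also occur in other genes, so the levels of these genes and their places in the order are uncertain.

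The first comparison asked how the genes stood after acute CS. None of the 25 ER stress genes and none of the 13 heat shock genes passed the adjusted limit in edgeR, which 3.47% of the 21440 genes tested did. That share stands for 745 genes, and it depended on the fit. With only the acute libraries fitted, 137 genes were called higher and 2 lower, and with a replicate block 68 and 5. Leaving out an acute library leaves 1 library in its group, so such fits cannot show whether the share rested on single libraries. By edgeR's log2 fold change, 7 ER stress genes were higher and 18 lower with a median of -0.15, and 1 heat shock gene was higher and 12 lower with a median of -0.31, against a median of 0.04 over all genes. At an unadjusted p under 0.05, 3 ER stress genes were higher and 1 was lower, near the shares of 10.7% and 5% of all genes. The acute groups did not overlap for 5 ER stress genes that were higher and 11 that were lower, where 27.8% and 22.5% of all genes did so in these directions. Of the heat shock genes, 0 were higher and 5 lower without overlap, and 0 had an unadjusted p under 0.05.

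Of the 4 genes with an unadjusted p under 0.05 after acute CS, Chac1, Asns and Atf4 belong to the branch of PERK and ATF4. Chac1, which ATF4 and CHOP induce, was counted at 0.321 and 1.72 CPM in acute RA F and M and at 8.00 and 6.16 CPM in acute CS F and M. The groups did not overlap, and the low value of acute RA F rested on 19 counts. Its log2 fold change was 2.79 (SE 0.98, adjusted p = 0.177 in edgeR's quasi-likelihood test), and DESeq2, which called 1961 genes (9.15%) in this comparison, gave it an adjusted p of 0.0299. It ran from 2.04 without acute RA F to 4.42 without acute RA M. Asns, asparagine synthetase, was at 9.999 and 14 CPM in acute RA and at 26.5 and 19.2 CPM in acute CS. Here too both CS libraries were the higher, by a log2 fold change of 0.93 (SE 0.38, adjusted p = 0.256 in edgeR).

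Atf4 itself was at 239 and 271 CPM in acute RA and at 205 and 179 CPM in acute CS, so that the CS libraries were the lower. Its log2 fold change was -0.41 (SE 0.16, adjusted p = 0.238 in edgeR). Ddit3 overlapped, with 23.7 and 17.8 CPM in acute RA against 16.9 and 20.6 CPM in acute CS (log2 fold change -0.15, SE 0.51). Trib3, a pseudokinase that restrains ATF4, was at 74.1 and 88.8 CPM against 46.7 and 86.9 CPM, and Ppp1r15a at 369 and 410 CPM against 344 and 248 CPM.

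Hspa5, the gene of the main ER chaperone, on chromosome 2 of GRCm38 from 34771970 to 34777547, was at 908 and 723 CPM in acute RA and at 602 and 576 CPM in acute CS. The groups did not overlap, with a log2 fold change of -0.47 (SE 0.57, adjusted p = 0.817 in edgeR). It ran from -0.66 without acute RA M to -0.29 without acute RA F. The GRP94 gene Hsp90b1 was at 517 and 503 CPM against 345 and 348 CPM, and the lectin chaperone gene Calr at 637 and 674 CPM against 422 and 486 CPM, with log2 fold changes of -0.56 and -0.53. Canx, Pdia3, Pdia6, Dnajc3, Dnajb11 and Hyou1 were also lower without overlap, at log2 fold changes from -0.85 for Hyou1 to -0.15. That of Hyou1 ran from -1.14 to -0.52 when single libraries were left out. Pdia4, Creld2, Manf and Dnajb9 overlapped, with log2 fold changes from -0.09 to 0.09.

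Herpud1, whose product takes part in degradation of ER proteins, went the other way. It was at 177 and 131 CPM in acute RA and at 219 and 236 CPM in acute CS (log2 fold change 0.56, SE 0.24, adjusted p = 0.289 in edgeR). Its log2 fold change ran from 0.33 without acute RA M to 0.80 without acute RA F. Xbp1 was at 323 and 263 CPM in acute RA and at 331 and 381 CPM in acute CS, with a narrow gap between acute RA F and acute CS F (log2 fold change 0.28, SE 0.41). Sdf2l1, an ER chaperone cofactor, was at 21.01 and 15.9 CPM against 26.1 and 25.7 CPM. Counts per gene do not tell spliced from unspliced Xbp1.

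Heat shock genes in acute CS were lower or overlapped. Hsf1 was at 95.0 and 97.8 CPM in acute RA and at 87.8 and 80.8 CPM in acute CS, without overlap (log2 fold change -0.19, SE 0.25). Hspa8 was at 1291 and 1180 CPM against 835 and 1161 CPM, and Hsp90ab1 at 1230 and 1251 CPM against 694 and 960 CPM. In both genes acute CS F was the lowest of the 4 acute libraries. The inducible HSP70 genes overlapped between the groups and varied widely inside them. Hspa1a was at 5.69 and 25.5 CPM in acute RA and at 19.9 and 31.3 CPM in acute CS, and Hspa1b at 39.9 and 281 CPM against 35.6 and 119 CPM.

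**Figure D2:**
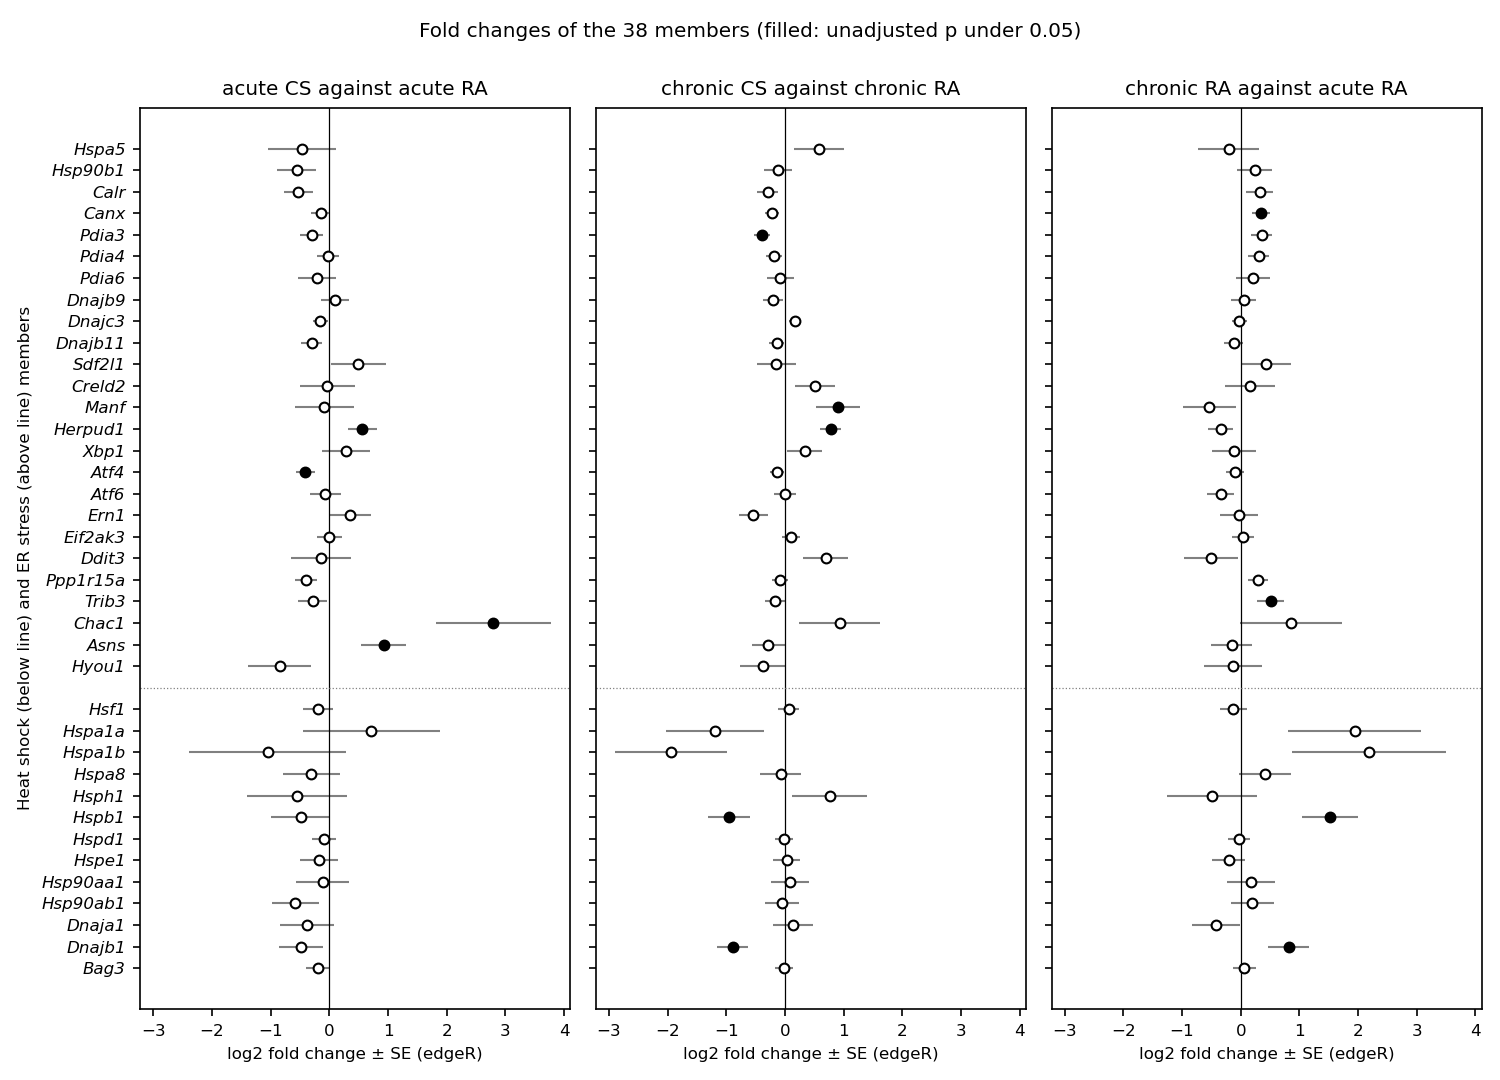
Log2 fold change with its standard error (edgeR) of the 38 genes, 1 row per gene, in the 3 comparisons, with ER stress genes above the dotted line and heat shock genes under it, and filled points where the unadjusted p was under 0.05. Of all 38, 4 were filled after acute CS, 5 after chronic CS and 4 between RA controls, and no gene passed the adjusted limit.

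Markers of other cells moved with acute CS. Of 8 leukocyte genes 8 were higher, their summed level being 235 to 241 CPM in acute RA and 1383 to 1883 CPM in acute CS. Of 10 plasma cell genes, which belong to secretory cells with a large ER, 9 were higher, at a summed 182 to 206 CPM against 354 to 1327 CPM. Of 12 blood endothelial genes 10 were higher (7586 to 8787 against 11020 to 13560 CPM), of 11 mesenchymal genes 11 (176 to 239 against 714 to 1081 CPM), and of 8 lymphatic genes 1 was higher and 7 lower (15250 to 17060 against 6481 to 9817 CPM). Of 10 alveolar macrophage genes 9 were higher (779 to 861 against 2161 to 2426 CPM), and of 10 lymphoid genes 10 (21.9 to 24.4 against 206 to 241 CPM). Of 10 alveolar epithelial genes 10 were higher, but their sums overlapped (796 to 1111 against 277 to 6819 CPM). None of Ptprc, Jchain, Sftpc and Prox1 was at 0 in these libraries. The part of these markers in the values above was not tested.

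The second comparison asked the same of chronic CS. Of the 21440 genes tested, 0 passed the adjusted limit in edgeR (0% called), so no gene of either group could stand out by this measure. DESeq2 called 524 genes (2.44%), among them Herpud1. By edgeR's log2 fold change, 10 ER stress genes were higher and 15 lower with a median of -0.12, and 5 heat shock genes were higher and 8 lower with a median of -0.02, against 0.01 over all genes. At an unadjusted p under 0.05 there were 2 ER stress genes higher (Herpud1 and Manf) and 1 lower (Pdia3), where 5.57% and 5.35% of all genes were, and 0 heat shock genes higher and 2 lower (Dnajb1 and Hspb1). Groups did not overlap for Herpud1, which was higher, and for Ern1 and Dnajb1, which were lower. Of all genes 3.92% were higher and 5.49% lower without overlap, so these counts were near the background.

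Herpud1 (ENSMUSG00000031770, chromosome 8 of GRCm38, 94386438 to 94395377, plus strand) was at 116, 130 and 118 CPM in chronic RA F, M1 and M2. In chronic CS F, M1, M2, M3 and M4 it was at 154, 248, 268, 187 and 183 CPM. All 5 CS libraries lay above all 3 RA libraries, and chronic CS M1 and M2 were the highest. The log2 fold change was 0.78 (SE 0.18, adjusted p = 0.253 in edgeR), and DESeq2 gave an adjusted p of 0.00354. The log2 fold change was 0.90 with chronic CS F, M1 and M2 as the CS group, 0.61 with M3 and M4, and 0.52 with F, M3 and M4, without the 2 highest libraries.

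Manf and Hspa5 were higher on average, but through the same pair of libraries. Manf, a secreted ER stress protein gene, was at 41.6, 46.9 and 50.6 CPM in chronic RA. In chronic CS F, M1, M2, M3 and M4 it was at 50.1, 142, 137, 52.9 and 51.5 CPM (log2 fold change 0.90, SE 0.38, adjusted p = 0.435 in edgeR). Hspa5 was at 566, 757 and 801 CPM in chronic RA and at 517, 1561, 1997, 617 and 587 CPM in chronic CS F, M1, M2, M3 and M4. Chronic CS M1 and M2 stood above every other library for Hspa5, while F, M3 and M4 lay inside or under the RA range. The log2 fold change of Hspa5 was 0.58 (SE 0.43, adjusted p = 0.646 in edgeR) and turned to -0.30 with chronic CS F, M3 and M4 alone, that of Manf went from 0.90 to 0.15. That choice of libraries was made after the values were seen.

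Other ER stress genes shared this division of the chronic CS group. Creld2, an ER disulfide isomerase-like gene with an ERSE, was at 55.6, 65.4 and 75.4 CPM in chronic RA and at 55.0, 133, 157, 62.5 and 59.8 CPM in chronic CS F, M1, M2, M3 and M4. Xbp1 was at 268, 240 and 304 CPM against 220, 489, 528, 234 and 235 CPM in the same order. Ddit3 was at 14.6, 13.99 and 15.1 CPM against 18.9, 28.2, 44.6, 14.5 and 11.8 CPM. For each of these genes chronic CS M1 and M2 were the highest of the chronic libraries. Chac1 was not divided in this way, at 2.07, 1.90 and 1.58 CPM in chronic RA and at 4.15, 1.94, 8.48, 1.29 and 1.81 CPM in chronic CS.

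**Figure D3:**
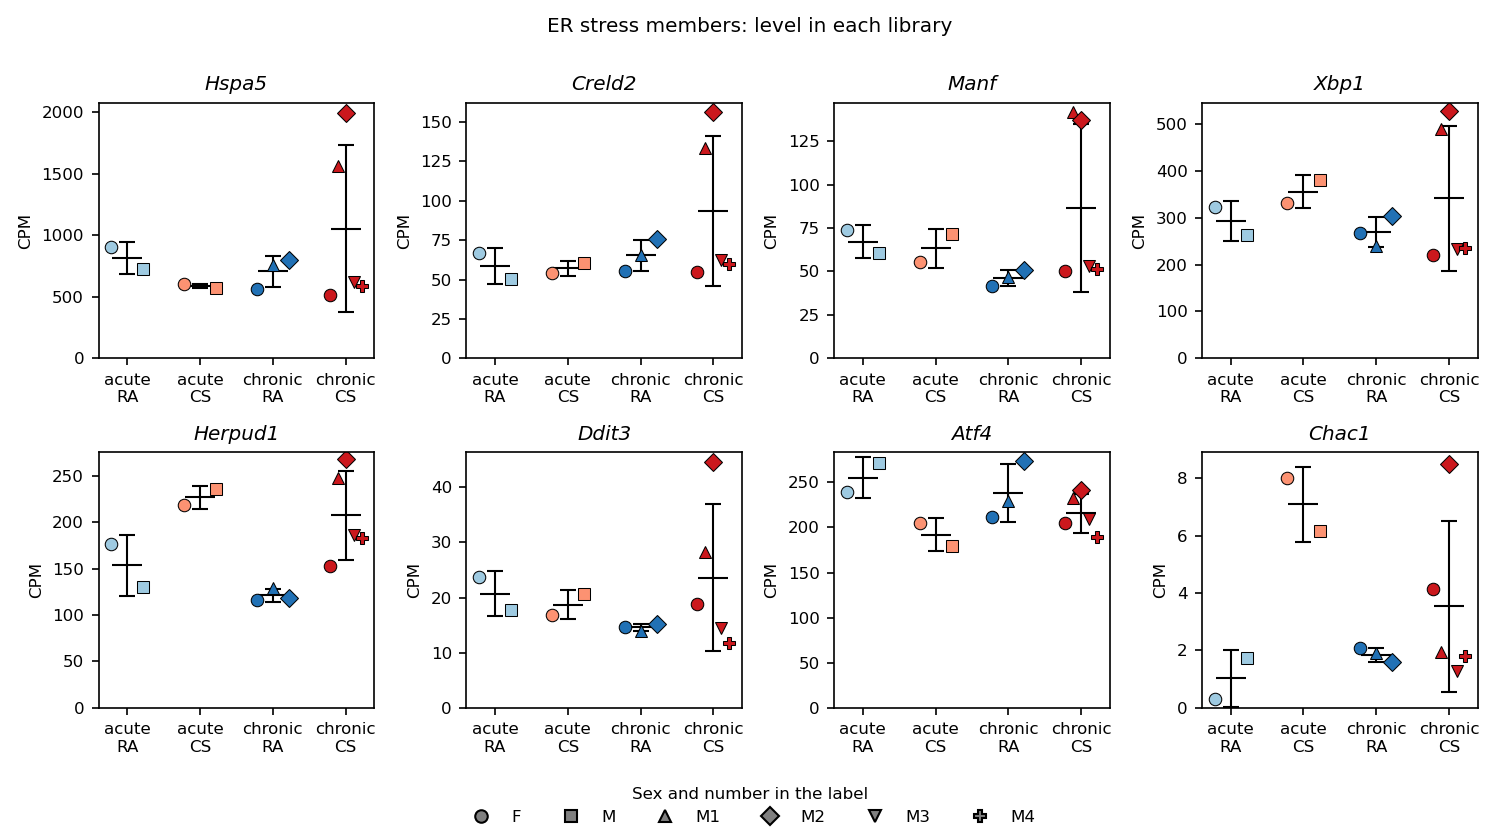
CPM of 8 ER stress genes in each library by group, with symbols for the sex and number in the label, horizontal bars at the group mean and error bars of 1 SD, cut at 0. Chronic CS M1 and M2 lay at 1561 and 1997 CPM for Hspa5, where the other chronic CS libraries had 617 CPM or less, whereas Atf4 stayed between 189.5 and 242 CPM in all chronic CS libraries.

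High values in chronic CS M1 and M2 were not shared by all ER stress genes. Atf4 was at 211, 230 and 274 CPM in chronic RA and at 205, 233, 242, 209 and 189.5 CPM in chronic CS F, M1, M2, M3 and M4, with overlap (log2 fold change -0.14, SE 0.12). Calr, Canx, Pdia3, Pdia4 and Hsp90b1 were highest in chronic RA M2 among all 12 libraries, and Pdia3 had a log2 fold change of -0.39 in chronic CS (SE 0.14, adjusted p = 0.381 in edgeR). Dnajb9, an ER HSP40 gene induced through XBP1, was at 30.9 and 34.1 CPM in chronic CS M1 and M2, under the RA range of 35.1 to 46.4 CPM. Ern1, the gene of IRE1, was at 16.3, 16.1 and 16.9 CPM in chronic RA and at 11.03, 8.71, 10.5, 11.3 and 14.8 CPM in chronic CS, all lower than in RA. Its log2 fold change was -0.54 (SE 0.25, adjusted p = 0.467 in edgeR).

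Cytosolic chaperones followed a similar division, with some exceptions. Hsph1, the HSP110 gene that carries the heat shock element shown above, was at 28, 50.96 and 28.3 CPM in chronic RA and at 33.8, 98.2, 135, 22.6 and 14.7 CPM in chronic CS F, M1, M2, M3 and M4. Hspa8 was at 1272, 2214 and 1445 CPM against 1243, 2218, 2492, 1076 and 769 CPM. Hsf1, the regulator, was at 91.8, 83.2 and 89.5 CPM against 68.6, 127, 108, 76.9 and 79.9 CPM. In each of these genes chronic CS M1 and M2 were the highest of the 12 libraries and M3 and M4 were lower than every chronic RA library. Hsp90aa1, Hsp90ab1, Dnaja1, Hspd1 and Hspe1 were also highest in chronic CS M1 or M2. The median log2 fold change of the heat shock genes was -0.02 with all chronic CS libraries and -0.55 without M1 and M2. M1 and M2 were left out after their high values were seen, so the lower median follows from that choice.

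Counting which of the 12 libraries held each gene's highest value set both groups of genes beside all genes. Chronic CS M1 was the highest for 2 and M2 for 8 of the 25 ER stress genes, and for 2 and 6 of the 13 heat shock genes. Over all 21440 genes tested, M1 was the highest for 12% and M2 for 13.2%. Chronic RA M2 was the highest for 8 ER stress genes and for 5.53% of all genes, and chronic RA M1 for 4 heat shock genes and for 5.01% of all genes. Chronic CS M4 was the lowest library for 7 of the 13 heat shock genes, against 5.97% of all genes, and chronic CS F for 10 of the 25 ER stress genes, against 8.16% of all genes. These are descriptions of single libraries with no test.

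**Figure D4:**
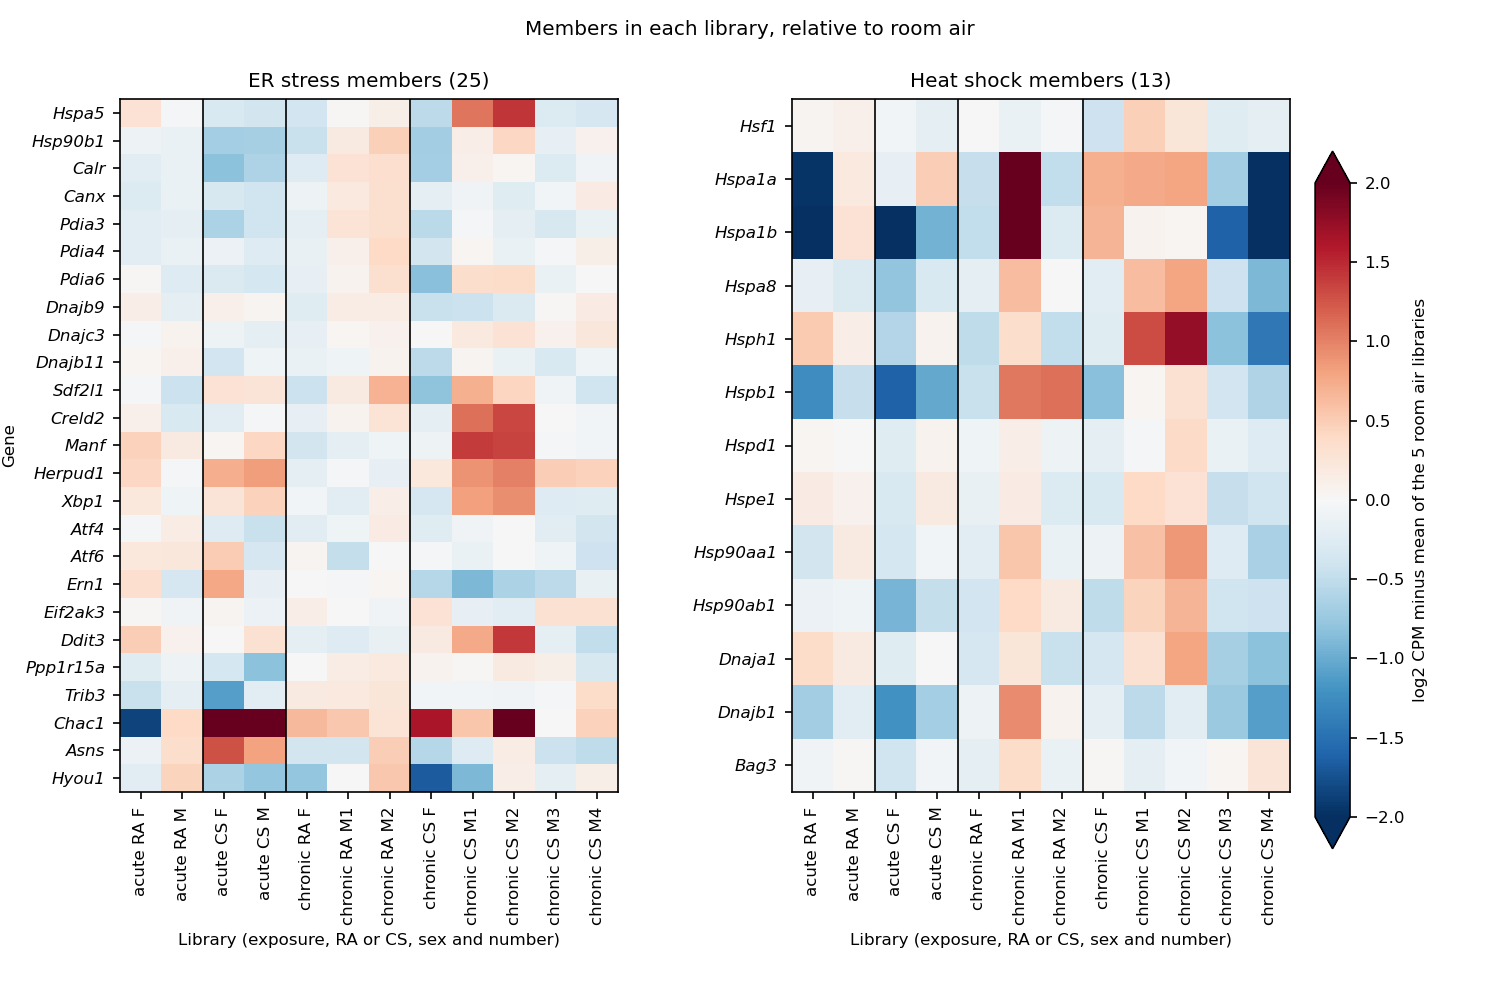
Log2 CPM of the 38 genes (rows) in the 12 libraries (columns) minus the mean of the 5 RA libraries, in colors from -2 to 2, with vertical lines between the groups. Chronic CS M1 and M2 were high for Hspa5, Creld2, Manf, Xbp1, Ddit3 and Hsph1, and chronic RA M1 was high for Hspa1a and Hspa1b.

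The spread inside the chronic CS group differed between genes. The SD of log2 CPM over the 5 libraries was 0.905 for Hspa5, 0.788 for Manf, 0.766 for Ddit3 and 1.37 for Hsph1, against a median of 0.289 over the ER stress genes, 0.557 over the heat shock genes and 0.557 over all genes tested. In chronic RA the SD of Hspa5 was 0.268 and that of Ddit3 0.055, but the median over all genes tested was also lower there, at 0.278. Hspb1, Hspa1a, Hspa1b and Dnajb1 were among the genes with the wider spread in chronic RA. Their SD was 0.881, 1.85, 1.96 and 0.557 there, against 0.46, 1.33, 1.44 and 0.384 in chronic CS.

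Depth and markers of chronic CS M1 and M2 were as follows. Their totals were 21596654 and 22885446 counts, close to chronic CS F at 18821438, whereas M3 and M4 had 47494020 and 45436986. The 8 lymphatic genes summed to 14900 and 15130 CPM in M1 and M2 and to 20460 to 21210 CPM in the other chronic CS libraries. The 8 leukocyte genes summed to 262 and 382 CPM, against 143, 353 and 209 CPM in F, M3 and M4, and the 10 plasma cell genes to 425 and 657 CPM, against 335, 522 and 310 CPM. The 10 alveolar epithelial genes, 10 of which were higher in chronic CS, summed to 266 to 505 CPM in chronic RA and to 977, 1802, 3034, 4852 and 1146 CPM in chronic CS F, M1, M2, M3 and M4. Of 11 mesenchymal genes 10 were higher in chronic CS, at a summed 133 to 165 CPM in chronic RA and 238, 397, 432, 333 and 293 CPM in chronic CS in the same order. The 7 erythroid genes summed to 199.9 to 437 CPM in chronic RA and to 69.3, 210.1, 359, 12.4 and 32.3 CPM in chronic CS in that order. Of 6 airway secretory genes 6 were higher in chronic CS, at a summed 3.51 to 42.4 CPM in chronic RA. In chronic CS F, M1, M2, M3 and M4 they summed to 270.3, 76.6, 92.2, 605.5 and 227.3 CPM. Of 10 alveolar macrophage genes 9 were higher, and of 12 blood endothelial genes 9, with sums that overlapped between the groups. The part of depth and of these markers was not tested.

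Dnajb1, the HSP40 partner of HSP70 and a target of HSF1, was lower in chronic CS. Dnajb1 (ENSMUSG00000005483, chromosome 8 of GRCm38, 83608193 to 83612653, plus strand) was at 228, 468 and 257 CPM in chronic RA F, M1 and M2. In chronic CS F, M1, M2, M3 and M4 it was at 216, 170.3, 209, 146 and 114 CPM. Every CS library lay under every RA library, by a narrow gap between chronic CS F and chronic RA F. The log2 fold change was -0.89 (SE 0.27, adjusted p = 0.324 in edgeR). It was -0.50 without chronic RA M1, the library with the highest value, which moved the fold by more than any other single library.

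Hspb1, the small heat shock protein HSP27 gene, was at 234, 664 and 682 CPM in chronic RA and at 179, 326, 392, 246 and 211 CPM in chronic CS F, M1, M2, M3 and M4. The groups overlapped at chronic RA F, with a log2 fold change of -0.96 (SE 0.36, adjusted p = 0.387 in edgeR). The gene with which it shares most windows is the pseudogene Hsp25-ps1, at 48.8% of its windows.

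Hspa1a and Hspa1b, the stress-inducible HSP70 genes next to each other on chromosome 17, rested on a single library. Hspa1b was at 163, 1839 and 190 CPM in chronic RA F, M1 and M2 and at 367, 242, 235, 74.8 and 32.6 CPM in chronic CS F, M1, M2, M3 and M4. Hspa1a was at 16.2, 148 and 15.9 CPM against 36.4, 37.7, 38.7, 13.8 and 4.72 CPM. Chronic RA M1 was far above all other libraries in both genes, and chronic CS M1 and M2, the libraries with the most Hspa5, were not. The log2 fold changes of -1.94 for Hspa1b (SE 0.95, adjusted p = 0.480 in edgeR) and -1.19 for Hspa1a (SE 0.83, adjusted p = 0.620) turned to 0.11 and 0.71 without it. The pair share most of their sequence: 62.3% of the 50-base windows of Hspa1b occur in Hspa1a, and their promoter windows differ at 4 of 300 bases, so how reads were divided between them is uncertain.

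**Figure D5:**
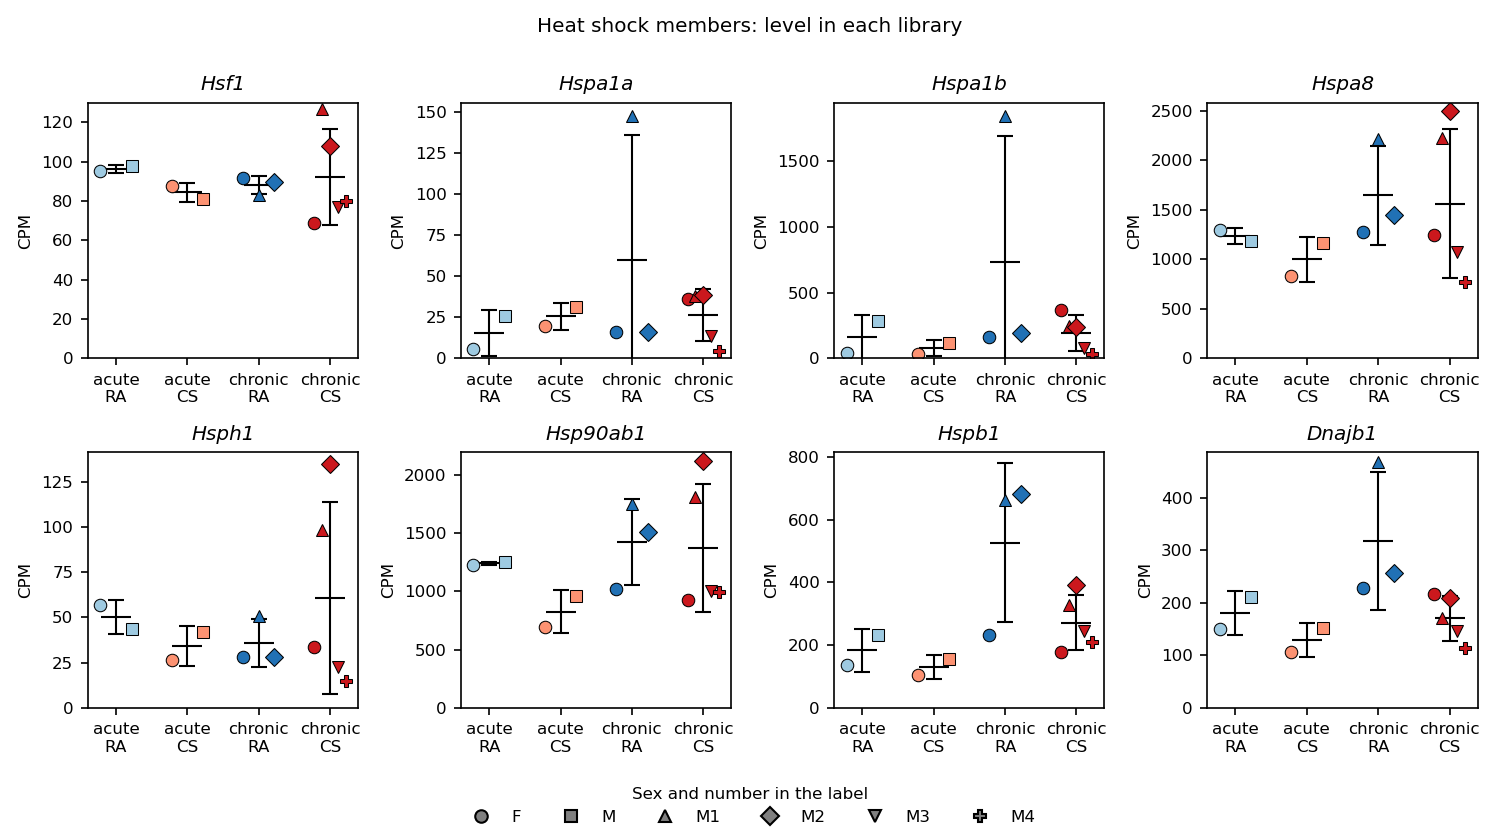
CPM of 8 heat shock genes in each library by group, with symbols for the sex and number in the label, horizontal bars at the group mean and error bars of 1 SD, cut at 0. Chronic RA M1 stood apart for Hspa1a, Hspa1b and Dnajb1, with 1839 CPM for Hspa1b, and chronic CS M1 and M2 were highest for Hsf1, Hspa8, Hsph1 and Hsp90ab1.

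The third comparison set chronic RA against acute RA, to show how the genes stood in controls of different age. In edgeR 0 genes of the 21440 tested passed the adjusted limit (0% called). DESeq2 called 253 genes (1.18%), among them Hspb1. The median log2 fold change was 0.04 over the ER stress genes and 0.18 over the heat shock genes, with 0 over all genes. At an unadjusted p under 0.05 there were 2 ER stress genes higher (Canx 0.35 and Trib3 0.51) and 2 heat shock genes higher (Hspb1 1.52 and Dnajb1 0.82), where 4.52% of all genes were higher, and 0 lower, where 2.5% were. Without overlap, 3 ER stress and 2 heat shock genes were higher and 4 and 1 were lower, against 21.1% and 17% of all genes. Hspb1 was at 135 and 231 CPM in acute RA, and chronic RA F, at 234 CPM, was barely above them. The log2 fold change of Dnajb1 was 0.42 without chronic RA M1. The 8 lymphatic genes summed to 15250 to 17060 CPM in acute RA and to 19930 to 22930 CPM in chronic RA. Of 10 alveolar epithelial genes 10 were lower in chronic RA, of 11 mesenchymal genes 7 were lower and 4 higher, and of 7 erythroid genes 7 were higher. The part of these markers was not tested.

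Whether acute and chronic CS acted differently was tested as the acute minus the chronic effect. None of the 38 genes passed the adjusted limit in edgeR, where 0.452% of all genes did. Asns had the lowest p of the 38, with a difference of 1.21 in log2 fold change (SE 0.47, adjusted p = 0.331 in edgeR). The difference for Hspa5 was -1.05 (SE 0.71) and that for Herpud1 -0.21 (SE 0.30), and neither passed the limit.

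Other genes of the same pathways were taken from fixed lists. Of 37 further ER folding and quality control genes, 1 passed the adjusted limit higher and 1 lower after acute CS, with 21 higher and 16 lower in all and a median of 0.04. Of all 21440 genes, 590 passed higher and 155 lower, or 3.47% together. Txndc5, an ER disulfide isomerase, was at 104 CPM in both acute RA libraries and at 205 and 189 CPM in acute CS (log2 fold change 0.92, adjusted p = 0.0124 in edgeR). Sec24d, a coat protein of vesicles leaving the ER, fell by 0.63 on the log2 scale (adjusted p = 0.0440 in edgeR). Of 30 tested genes of the integrated stress response, 2 rose and 1 fell. Phgdh, the first enzyme of serine synthesis and a gene of the ATF4 program, was at 3.46 and 5.33 CPM in acute RA and at 32.4 and 46.8 CPM in acute CS (log2 fold change 3.17, adjusted p = 0.0104 in edgeR). Gdf15, a stress cytokine, rose by 1.49 (adjusted p = 0.0495 in edgeR), and Nupr1, a stress-induced chromatin protein, fell by 0.88 (adjusted p = 0.0286 in edgeR). Markers of other cells moved in these same acute libraries. Their part in these calls and in those of the lists that follow was not tested.

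Of 42 further cytosolic chaperone genes, 33 were lower after acute CS and 1, the HSP40 gene Dnajb5, passed the adjusted limit, lower by a log2 fold change of -1.11 (adjusted p = 0.0208 in edgeR), where 3.47% of all genes passed it in either direction (590 higher and 155 lower). Of 18 immediate early genes, which respond within minutes to stress and cell handling, 4 fell (Egr1, Fos, Junb and Dusp1, from -1.40 to -0.58) and 2 rose (Nr4a1 at 1.80 and Ier3 at 1.76) by edgeR's adjusted limit. In chronic CS and between the RA controls, 0 genes of these lists passed it in edgeR. At an unadjusted p under 0.05 in chronic CS, 0 of the ER folding genes were higher and 8 lower, 1 and 4 of the integrated stress response, 1 and 3 of the chaperones and 6 and 3 of the immediate early genes, where 5.57% of all genes were higher and 5.35% lower. Between the RA controls these counts were 1 and 2, 0 and 0, 3 and 4, and 8 and 1, where 4.52% of all genes were higher and 2.5% lower. None of the 12 genes called after acute CS kept its call when only the acute libraries were fitted, where edgeR's adjusted p ran from 0.0544 for Phgdh upward. Leaving out acute RA M also ended all 12 calls, leaving out acute RA F or acute CS F ended 10 each, and leaving out acute CS M ended 6.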

How the data were processed

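RNA of sorted lung LECs was sequenced from SMART-Seq v4 libraries. The deposited values are counts of reads for each Ensembl identifier, not normalized. The authors trimmed adapters (Skewer), controlled read quality (Minion, FastQC 0.11.9) and aligned them to GRCm38 (mm10) with STAR, whose GeneCounts mode gave the counts. The annotation release and strand setting are not given in the sources used here.

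Groups, sex and number came from the labels. Names, positions and exon lengths came from GENCODE M21, where 147 identifiers, with at most 0.011% of a library's counts, were not found. In R 4.3.3, edgeR 4.0.16 filtered genes by expression (21440 left) and fitted all 12 libraries by group, with TMM factors and quasi-likelihood F-tests. P-values were adjusted after Benjamini and Hochberg over all genes, with a limit of 0.05. A prior count of 2 was used for log2 CPM of single libraries. FPKM used the union of exons. A floor of 3 counts corresponds to 0.0526 to 0.159 CPM and covers counting error only. The fit was tested on simulated counts.

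The 38 genes and all lists were chosen with earlier results of these data known. All 38 were reported, with values of every library for genes with an adjusted p under 0.05, for genes with an unadjusted p under 0.05 whose chronic groups do not overlap, and for Hspa5, Ddit3, Atf4, Xbp1, Hspa1a, Hspa1b, Hsf1 and Hspa8. Further genes shown by library were chosen after their values were seen. Alternatives were DESeq2 1.42.0, its size factors, scaling by library size, all genes unfiltered, fits to the compared groups alone, a term for sex, a replicate block, robust estimation, leaving out each library, and subsets of chronic CS (F, M3 and M4 was chosen after seeing the data). Scripts in Python (3.11.15, with pandas 2.3.3 and, for plots, matplotlib 3.10.9) searched promoters and transcript windows. Promoters of Manf, Atf6, Hyou1, Hsf1, Hspa8, Hsp90aa1 and Hsp90ab1 and protein sequences were not used here.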

Additional observations from a re-analysis of the deposited data

Results flagged for a closer look

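Among the 38 genes, 1 had a library far from the others in the chronic CS group, the only group large enough for this check. For Trib3, chronic CS M4 was the highest at 130 CPM, where the other libraries had 95.4 to 99.1 CPM, and its gap to the next library was 0.877 of the range of the group on the log2 CPM scale. Chance alone takes about 1 in 20 groups past the limit of this check, and 38 genes were checked.

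None of the 38 genes passed the adjusted limit in edgeR's test of the difference between acute and chronic CS. Of the listed pathway genes, Txndc5 did, with an acute minus chronic log2 fold change of 1.20 (adjusted p = 0.0406 in edgeR), and so did Egr1, with -1.32 (adjusted p = 0.0406 in edgeR). Txndc5 was lower in chronic CS F than in any other library, at 81.9 CPM.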

How the results depend on the processing

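Of 1672 values of single genes of the 38 under an alternative, 3 passed the adjusted limit, all with DESeq2 (Chac1, Herpud1 and Hspb1), 0 turned direction after being called and 129 without a call changed sign. With DESeq2, 1 ER stress gene was called after acute CS, 1 after chronic CS and 1 heat shock gene between the RA controls, with 1961, 524 and 253 genes called in all, against 745, 0 and 0 in edgeR. Without the filter, 10 genes were called after chronic CS and 6 between the RA controls. With only the groups compared, 139 were called after acute CS and 42 between the RA controls. Chronic CS F, M1 and M2 alone gave 1 call, and M3 and M4 alone gave 16. The median of the heat shock genes in chronic CS was -0.59 with M3 and M4 alone and -0.55 with F, M3 and M4. Libraries with the same sex and number in the label showed little shared deviation from their group means (correlations from -0.042 to 0.069). The acute F and M libraries give the same value by construction, so this check cannot exclude that libraries were paired. The replicate block left 73 calls after acute CS, ended 11 of the 12 calls of pathway genes and moved the median of the ER stress genes between the RA controls to -0.33.

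Leaving out each library in turn gave 3 to 858 calls after acute CS and 0 to 4 after chronic CS, with 0 of the 38 genes called. The fewest after acute CS came without acute RA M (3), acute RA F (79) or acute CS F (175). Medians of the ER stress genes then ran from -0.18 to -0.07 after acute CS, from -0.17 to 0.07 after chronic CS and from -0.02 to 0.13 between the RA controls, and those of the heat shock genes from -0.52 to -0.20, from -0.16 to 0.17 and from -0.10 to 0.31. Library size in place of TMM moved the median of all genes between the RA controls from 0 to -0.10 and in chronic CS from 0.01 to 0.10. Of 144 values of the 12 called pathway genes, 68 lost their call and 0 turned direction. All 38 genes lay above the floor of 3 counts in every library.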
